A study of Mus musculus with 8 samples.

Results

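Of 128057 genomic regions measured by ATAC-seq in type 1 conventional dendritic cells (cDC1s), 107 passed a rule for regions open mainly in tumours at day 21 and less so in tumours at day 7. They were picked on CPM, a region's share of all counts of its library scaled to counts per 1000000. A region qualified with a mean of at least 4 CPM at day 21, a mean below 2 CPM at day 7, and every day 21 library above every day 7 library. The values that picked these regions are those of the day comparison itself, so their difference between days is described here without a test. The data are 8 libraries from wild-type mice bearing tumours of B16-OVA, a mouse melanoma line that expresses the model antigen ovalbumin. In 4 libraries the cells were sorted from tumours 21 days after inoculation, and in the other 4 after 7 days. The tumour line and the genotype were the same on both days, and the labels name no treatment beyond tumour growth. They do not say whether libraries came from separate animals, so p-values and SDs measure only the spread between these libraries.

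ATAC-seq uses a transposase that inserts sequencing adapters into DNA not wrapped in nucleosomes, so more counts in a region mean a more accessible one. Promoters of active genes are open in most cell types. Regions far from promoters include enhancers, short elements bound by transcription factors that can act on a gene over long distances, and their opening tends to be specific to a cell type or cell state. cDC1s present captured tumour antigen to CD8 T cells. In a sorted population, a change in the share of cells with an open region and a change in openness per cell cannot be told apart. The nearest protein-coding gene is used as a name for each region, and no assay here ties a region to that gene.

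No region of the set overlapped a promoter in the RefSeq promoter table. The promoters of 4 nearest genes are shown, each within a broad accessible region. For each, a region of the set lay 5.90 kb to 13.3 kb from the start. Promoters of H3f3b, Nars2 and Rab19 were searched in the same way but are not printed. The promoters run from 250 bases before to 50 bases after the annotated start, in GRCm38.p6 (mm10), 5′ to 3′ on the strand of the gene. Capitals mark matches to the motifs searched.
Hspa5, chr2:34771840-34772139, plus strand: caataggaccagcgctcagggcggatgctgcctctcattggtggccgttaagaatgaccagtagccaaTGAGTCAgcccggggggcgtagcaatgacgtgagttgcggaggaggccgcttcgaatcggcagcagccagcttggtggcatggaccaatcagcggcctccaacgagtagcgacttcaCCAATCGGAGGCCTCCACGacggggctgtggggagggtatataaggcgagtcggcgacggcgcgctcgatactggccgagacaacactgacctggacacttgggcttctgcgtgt
Klf2, chr8:72318812-72319111, plus strand: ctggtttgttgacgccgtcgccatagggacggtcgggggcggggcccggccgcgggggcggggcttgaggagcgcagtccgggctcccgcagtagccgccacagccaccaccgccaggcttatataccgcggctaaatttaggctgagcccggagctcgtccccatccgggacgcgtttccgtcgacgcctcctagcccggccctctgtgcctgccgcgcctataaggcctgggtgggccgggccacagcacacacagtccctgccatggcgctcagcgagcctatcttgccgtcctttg
Sqstm1, chr11:50210771-50211070, minus strand: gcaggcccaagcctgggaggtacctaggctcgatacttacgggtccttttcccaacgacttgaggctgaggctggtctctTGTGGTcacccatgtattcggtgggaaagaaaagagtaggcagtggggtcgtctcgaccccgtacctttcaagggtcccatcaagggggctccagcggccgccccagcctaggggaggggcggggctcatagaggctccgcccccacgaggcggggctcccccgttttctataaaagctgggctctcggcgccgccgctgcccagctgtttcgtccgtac
Sgk1, chr10:21994416-21994715, plus strand: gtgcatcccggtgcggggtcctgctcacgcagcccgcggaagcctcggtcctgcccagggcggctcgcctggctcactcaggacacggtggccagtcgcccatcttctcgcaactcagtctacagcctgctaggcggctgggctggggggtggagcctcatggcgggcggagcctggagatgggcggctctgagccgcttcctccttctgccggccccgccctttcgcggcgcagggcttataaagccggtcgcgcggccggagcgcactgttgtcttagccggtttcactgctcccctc
The Hspa5 promoter held 1 match to the AP-1 motif TGANTCA and 1 to the ER stress response element, which is CCAAT and CCACG with 9 bases of any kind between them. Of 32851 promoters in the table, 7.81% held the AP-1 motif and 39 (0.119%) held the ER stress response element, on either strand. In the Sqstm1 promoter 1 match to the RUNX motif TGTGGT was found, which 16.8% of promoters held. No match to AP-1, RUNX or the other 8 motifs searched (CRE TGACGTCA, KLF GGGTGTGG, NF-kB GGGNNTTCC, PU.1 GAGGAAGT, IRF GAAANNGAA, NR4A AAAGGTCA, C/EBP TTGCGCAA and the ER stress response element) stood in the Klf2 or Sgk1 windows. Of the promoters not printed, that of Rab19 held 2 matches to the IRF motif, which 8.56% of promoters held. Those of H3f3b and Nars2 held no match. Across the 104 promoters of nearest genes, 10.6% held the AP-1 motif and 14.4% the RUNX motif.

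Mean levels at day 21 ran from 4.01 to 9.61 CPM over the 107 regions, with a median of 4.41 CPM. At day 7 they ran from 0.498 to 2.00 CPM, with a median of 1.77 CPM. The ratio of the day means had a median of 2.57 and a range of 2.05 to 8.10. It reached at least 3 in 29 regions, at least 4 in 12 and at least 7 in 2. Most of the set was weakly open: 62 regions (57.9%) averaged between 4 and 4.5 CPM at day 21, and 8 (7.48%) reached 6 CPM or more. For comparison, the median region of the whole table had 3.02 CPM at day 21 and 3.10 CPM at day 7. All 107 regions passed the filter on low counts and were called higher at day 21 by edgeR's quasi-likelihood test (Benjamini-Hochberg adjusted p under 0.05), as were 9.5% of the 121865 regions tested. Every day 21 library above every day 7 library, a condition of the rule, held for 9.7% of all regions. The mirrored rule, with the days exchanged, found 479 regions open mainly at day 7.

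**Figure D1:**
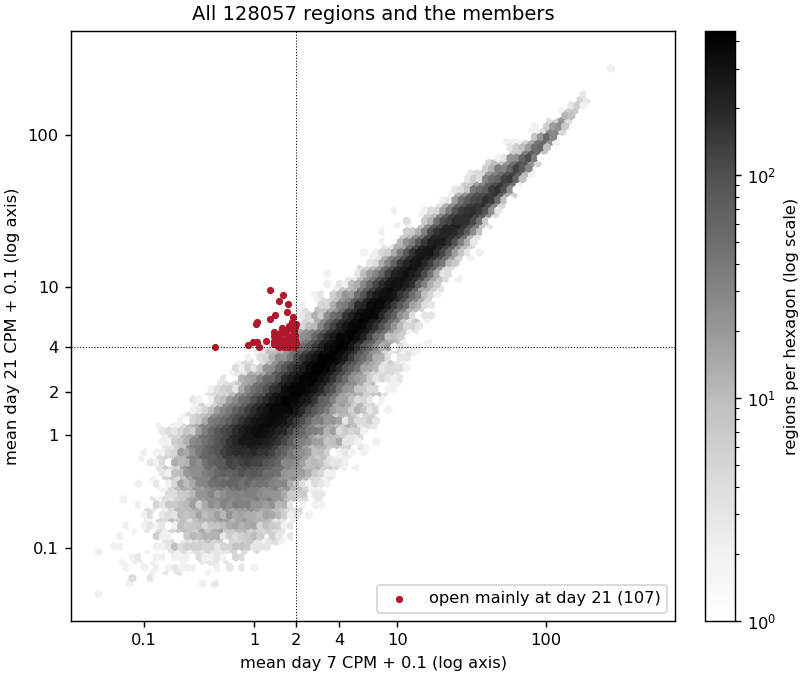
Mean CPM of each region at day 21 (vertical, log axis, 0.1 added) against its mean at day 7 (horizontal, log axis, 0.1 added); grey shading counts regions per hexagon, red points are the 107 regions, and dotted lines mark 4 and 2 CPM. The red points crowd into the corner of the 2 lines, with few above 6 CPM.

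The limits of the rule cut through a continuum. Just inside the day 7 limit stood regions nearest to Nars2 (1.998 CPM) and Cdk6 (1.99 CPM). Just outside it were regions nearest to Arhgef6 (2.001 CPM) and Gm41291 (2.007 CPM). At the day 21 limit, a region nearest to AI429214 (4.01 CPM) and one nearest to Sik1 (4.02 CPM) were inside, whereas regions nearest to Dcc and Adgrl2 (3.99 CPM each) were outside. A further 4 regions met both limits but had overlapping libraries. They lay nearest to Palld, Tmem161b, Mmp24 and Megf11.

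Summed over the 107 regions, the day 21 libraries held 480, 558, 516 and 483 CPM in replicates 1 to 4. The day 7 libraries held 194, 171, 180 and 183 CPM. The rule itself sets the sums of the days apart. Libraries of 1 day were close to each other. Total counts were between 14021151 and 27737040 at day 21 and between 9440223 and 16063736 at day 7. The median count of a region of the set was between 61 and 119 in the day 21 libraries and between 15 and 26 in the day 7 libraries. A count of 3, taken as the detection floor, was worth 0.108 to 0.318 CPM. The coefficient of variation between libraries had a median of 17.7% at day 21 and 30.3% at day 7, against 18.3% at day 21 and 21.1% at day 7 over all regions. The day 7 value rests on the low counts given above, and it was not compared with regions of like level. Replicate 2 was the highest day 21 library in 44 of the 107 regions, replicate 3 in 25, replicate 1 in 21 and replicate 4 in 17.

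**Figure D2:**
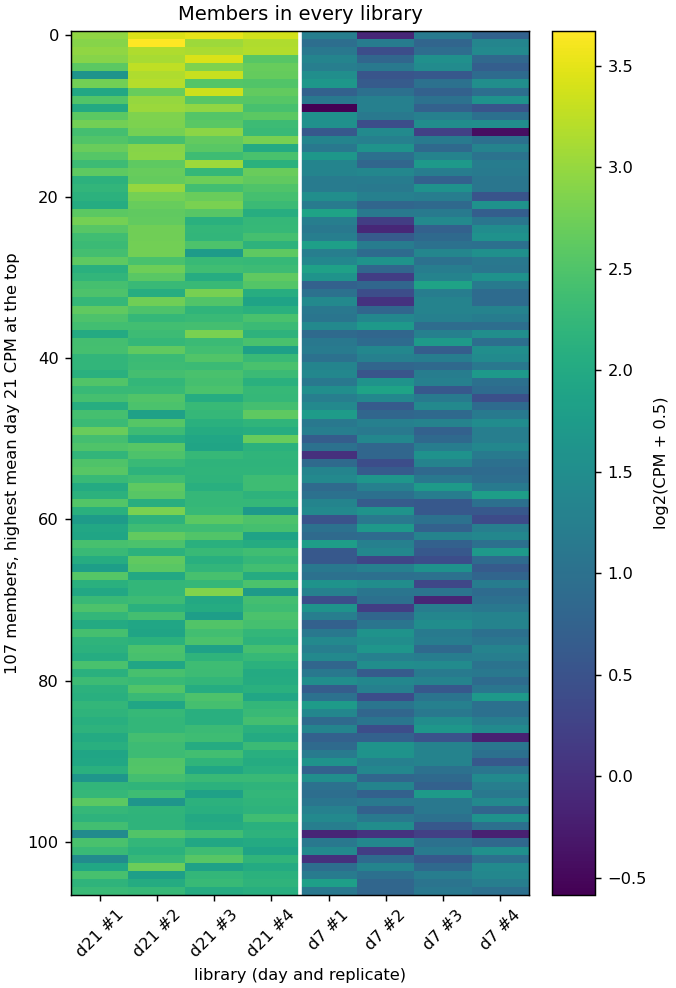
Level of the 107 regions (rows, highest mean day 21 CPM at the top) in the 8 libraries (columns, day 21 left of the white line and day 7 right of it), as log2(CPM + 0.5). Every row is brighter in all 4 day 21 columns than in all 4 day 7 columns, which the rule requires. The day 7 columns, which hold fewer counts, vary more from row to row.

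Nearly all of the set lay away from gene ends. Only 2 regions (1.87%, 95% Wilson interval 0.514% to 6.56%) overlapped a gene end, meaning the 1000 bp on either side of an annotated transcription start, or of both gene ends where no start was given. Over all regions that share was 13.4%. The small count moves with the setting: 1.72% to 4.13% lay at gene ends when 1 library was left out of the choice (3.77% without day 21 replicate 2, 3.6% without day 7 replicate 2 and 4.13% without day 7 replicate 4), and 5.61% with windows of 2000 bp, against 16.9% of all regions. Another 53 (49.5%) lay in gene bodies and 52 (48.6%) between genes, against 46.9% in bodies and 39.7% between genes for all regions. The 479 regions open mainly at day 7 had broadly similar shares by place, with 4.18% at gene ends, 46.8% in bodies and 48.9% between genes. The median distance to the nearest start or end was 26.7 kb, against 24.1 kb for those open mainly at day 7 and 19.1 kb for all regions. More than 100 kb separated 25 regions (23.4%) from any such point, against 15.0% of those open mainly at day 7 and 13.4% of all regions. The limit of 2 CPM left out regions strongly open at day 7, such as that of the Hspa5 promoter (112 CPM). Regions of like level were not compared, so the differences from all regions cannot be read as traits of opening at day 21. A region of the set had a median width of 422 bp (122 to 889), against 364 bp overall. Chromosome 8 held the most, 12 of its 5870 regions, followed by chromosome 2 with 11 of 9981. The X chromosome held 0 among 3224 regions. Several of the chromosome 8 regions shared a gene, as described below for Myo16.

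The strongest region of the set lay beside Hspa5, which encodes BiP, the main chaperone of the endoplasmic reticulum and a target of the unfolded protein response. It sits at chr2:34780534-34780856, inside the body of the neighbouring gene Rabepk and 8.61 kb from the start of Hspa5. Day 21 libraries had 7.27, 10.4, 10.9 and 9.88 CPM, and day 7 libraries 1.85, 0.424, 1.75 and 1.18 CPM. The lowest day 21 library was thus well above the highest day 7 library, and the log2 fold change was 2.85 ± 0.23 (SE). A second region of the set, chr2:34781520-34781642, had the largest fold of all, with 2.28, 5.19, 4.67 and 4.00 CPM at day 21 and 0.421, 0.530, 0.669 and 0.374 CPM at day 7. Its log2 fold change was 3.04 ± 0.33. The small fold denominators rest on few reads: this region had between 5 and 8 counts in the day 7 libraries, and the first had 4 in day 7 replicate 2.

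At Klf2, a zinc-finger factor that in lymphocytes governs quiescence and migration, the region chr8:72325582-72325797 lay 6.63 kb from the start, between genes. It had 6.92, 12.2, 7.73 and 8.51 CPM at day 21 and 1.43, 1.80, 1.25 and 2.05 CPM at day 7. Replicate 2 gave the highest value, and the other 3 day 21 libraries were also all above day 7, which the rule requires. The log2 fold change was 2.42 ± 0.22. Beside H3f3b, which encodes the replication-independent histone H3.3, the region chr11:116019424-116019723 had 7.27, 8.47, 8.24 and 8.54 CPM at day 21 and 1.68, 0.847, 1.42 and 2.18 CPM at day 7. Its day 21 libraries were close together, and the log2 fold change was 2.35 ± 0.21. Near Sqstm1, which encodes the autophagy receptor p62, a pair of regions lay in the body of the adjacent gene Mrnip. The stronger, chr11:50197117-50197887, had 6.92, 8.17, 10.3 and 5.44 CPM at day 21 and 2.02, 1.27, 2.42 and 1.31 CPM at day 7, a log2 fold change of 2.13 ± 0.23. The weaker, chr11:50198900-50199348, averaged 5.28 ± 1.12 CPM at day 21 and 1.76 ± 0.596 CPM at day 7 (SD, n = 4 each). In either region every day 21 value was above every day 7 value, which the rule requires.

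**Figure D3:**
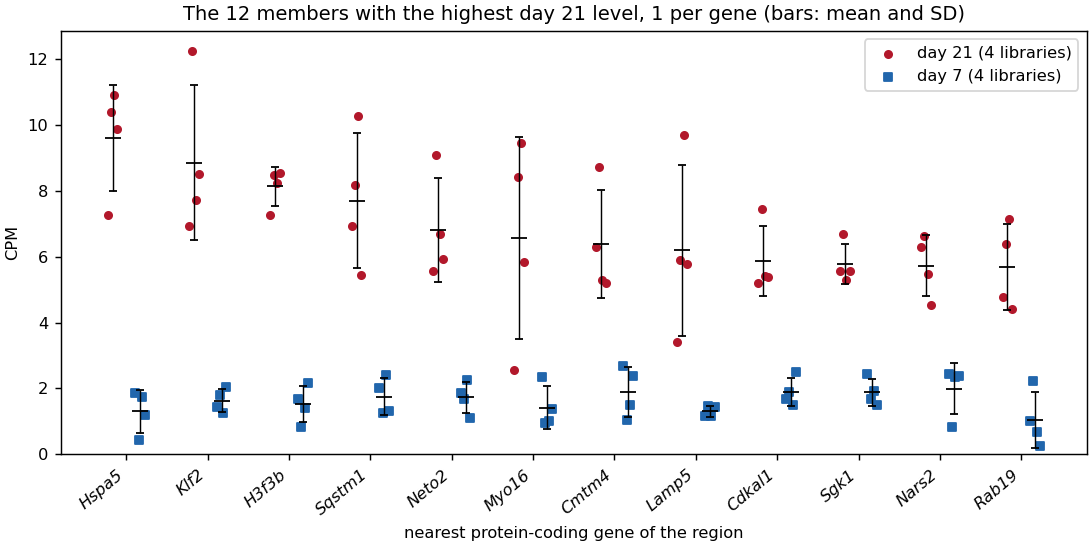
CPM in each library for the 12 regions with the highest mean at day 21, 1 per nearest gene; red circles are day 21, blue squares day 7, and bars give the mean and SD of 4 libraries. The Hspa5 region averages 9.61 CPM at day 21 and 1.30 CPM at day 7, and the 4 day 21 values spread most at Myo16.

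Further strong regions lay near genes of varied function. The region chr10:22000126-22001015 stood 5.90 kb from a start of Sgk1, a kinase induced by serum and glucocorticoids. It had 5.56, 6.68, 5.30 and 5.55 CPM at day 21 and 2.44, 1.69, 1.92 and 1.49 CPM at day 7 (log2 fold change 1.62 ± 0.22). The region chr6:39395014-39395775, nearest to the small GTPase gene Rab19, had 4.78, 6.38, 7.15 and 4.40 CPM at day 21 and 1.01, 2.22, 0.669 and 0.249 CPM at day 7. Its day 7 libraries spread widely, with 4 counts in replicate 4, and the log2 fold change was 2.58 ± 0.30. In the body of Itfg1 and nearest to Neto2, an auxiliary subunit of kainate receptors in neurons, the region chr8:85729876-85730643 averaged 6.81 ± 1.58 CPM at day 21 and 1.73 ± 0.471 CPM at day 7. Cmtm4 encodes a MARVEL-domain membrane protein that, with its relative CMTM6, stabilises PD-L1 in human cells. The region chr8:104375133-104375705 in its body averaged 6.37 ± 1.63 CPM at day 21 and 1.91 ± 0.755 CPM at day 7. Nars2, which encodes the mitochondrial asparaginyl-tRNA synthetase, had the region chr7:96946519-96946927 at 4.80 kb, with 5.73 ± 0.925 CPM at day 21 and 1.998 ± 0.768 CPM at day 7. Cdkal1 encodes an enzyme that modifies transfer RNA. A region in its body, chr13:29471766-29472244, averaged 5.86 ± 1.07 CPM at day 21 and 1.896 ± 0.429 CPM at day 7.

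Large folds on a lower level marked 3 more regions. Ehbp1 encodes an adaptor of endocytic transport, and the region chr11:22254264-22254673 in its body averaged 4.34 ± 0.922 CPM at day 21 and 0.989 ± 0.277 CPM at day 7 (log2 fold change 2.09 ± 0.27). In the body of Npas3, a transcription factor gene best known from the brain, the region chr12:53288455-53288942 averaged 4.30 ± 0.584 CPM at day 21 and 1.06 ± 0.525 CPM at day 7 (2.01 ± 0.28). The region chr6:135723127-135723412 in Grin2b, an NMDA receptor subunit gene, averaged 5.03 ± 0.958 CPM at day 21 and 1.40 ± 0.796 CPM at day 7 (1.76 ± 0.26). The 2 regions at gene ends were of ordinary strength. One lay 204 bp from an end of Sik1, a salt-inducible kinase of the AMPK family (chr17:31843928-31844160), with 4.49, 6.26, 5.07 and 4.00 CPM at day 21 and 3.03, 1.80, 1.504 and 1.49 CPM at day 7. The other lay 221 bp from an end of Gsg1l, an auxiliary subunit of AMPA receptors (chr7:125877979-125878404), with 5.06, 4.24, 4.44 and 4.94 CPM at day 21 and 1.60, 2.12, 1.92 and 1.81 CPM at day 7. The strand of both genes was not given in the tables used, so these ends may be starts or 3′ ends.

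Most of the set stood alone. With a gap of at most 50 kb as the limit, 13 regions (12.1%) fell into 6 clusters and 94 (87.9%) had no other of the set nearby. In the 479 regions open mainly at day 7, which is a larger set and so more likely to hold neighbours, 119 (24.8%) were linked. The linked share of the set rested in part on 1 library: chosen without day 21 replicate 3, 6.9% of the regions were linked. Sets of like size drawn from all regions were not compared, so this share cannot be read as clustering or as a lack of it. The 98 nearest genes comprised 91 with 1 region, 5 with 2 and 2 with 3.

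The largest cluster held 3 regions over 51.7 kb in the body of Plcb4, which encodes a phospholipase C of G-protein signalling. The region chr2:135943031-135943583, closer to Lamp5 than to the start of Plcb4, had 3.42, 5.91, 9.69 and 5.77 CPM at day 21 and 1.18, 1.48, 1.17 and 1.43 CPM at day 7 (log2 fold change 2.24 ± 0.26). Lamp5 encodes a protein of the lysosome-associated membrane protein family. The region chr2:135899638-135899971 averaged 4.12 ± 0.663 CPM at day 21 and 0.909 ± 0.376 CPM at day 7, and the region chr2:135891898-135892170 averaged 4.03 ± 1.30 CPM at day 21 and 1.10 ± 0.446 CPM at day 7. Replicate 3 was the highest day 21 library in the first and the last, and replicate 1 was the lowest in these 2.

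Myo16, an unconventional myosin gene, also held 3 regions, all within its body. Those at chr8:10540802-10541163 and chr8:10562205-10562465 were linked, while the strongest lay more than 50 kb from them and counted as single. The strongest, chr8:10485188-10485674, had 2.57, 8.41, 9.45 and 5.84 CPM at day 21 and 2.36, 0.953, 1.00 and 1.37 CPM at day 7. Day 21 replicate 1 was barely above day 7 replicate 1 there, while the other 3 day 21 libraries were clearly above (log2 fold change 2.21 ± 0.27). At chr8:10540802-10541163 the values were 3.49, 7.70, 7.32 and 4.90 CPM at day 21 and 0.168, 1.91, 1.17 and 0.934 CPM at day 7, where 0.168 CPM is 2 counts. The remaining Myo16 region, chr8:10562205-10562465, averaged 4.80 ± 0.965 CPM at day 21 and 1.96 ± 0.803 CPM at day 7. Low values of day 21 replicate 1 were common among the linked regions: it was the lowest day 21 library in 9 of the 13, and replicate 3 the highest in 8. Relative to the mean of the day, linked regions had a median of 0.757 in replicate 1 and 1.25 in replicate 3, while single regions had 0.978 and 0.963.

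Pfkp, which encodes the platelet form of the glycolytic enzyme phosphofructokinase, had a linked pair in its body. The region chr13:6613780-6614474 averaged 5.46 ± 1.70 CPM at day 21 and 1.96 ± 0.616 CPM at day 7, and the region chr13:6621833-6622314 averaged 5.40 ± 1.00 CPM at day 21 and 1.59 ± 0.290 CPM at day 7. Another region with Pfkp as its nearest gene lay 337 kb away. Tnfaip3 encodes A20, an inhibitor of NF-kB signalling, and its pair lay 12.4 kb and 9.70 kb from the start. The region chr10:18999384-18999770 had 5.06, 3.70, 6.46 and 3.71 CPM at day 21 and 1.51, 0.847, 1.84 and 1.37 CPM at day 7. The region chr10:19002050-19002471 had 3.57, 4.53, 6.51 and 3.97 CPM at day 21 and 1.35, 1.27, 1.92 and 2.37 CPM at day 7. Day 21 replicate 3 was the highest in both.

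The functions of the nearest genes were counted over 21 lists. Unfolded protein and heat shock genes were nearest to 3 regions of the set (2.8%, against 0.125% of all regions). They were the pair at Hspa5 and the region chr9:40808683-40808896, 3.59 kb from an end of Hspa8, the constitutive cytosolic chaperone. The Hspa8 region had 4.78, 6.32, 2.88 and 5.62 CPM at day 21 and 1.85, 1.38, 2.09 and 2.43 CPM at day 7. Hypoxia and glycolysis genes were also nearest to 3 (2.8%, against 0.241%), all of them with Pfkp. The list of mitochondrial dynamics counted 2 (1.87%, against 0.166%), both at Sqstm1, which acts in selective autophagy. Of the immediate-early factors, Klf2 and Myc were nearest to 1 region each (1.87%, against 0.587%). The Myc region, chr15:62229906-62230360, lay 240 kb from the gene, inside the noncoding gene Pvt1, and averaged 4.14 ± 0.264 CPM at day 21 and 1.64 ± 0.353 CPM at day 7. Because several of these counts are a pair at 1 locus, they stand for 1 or 2 loci each.

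Lists of cell identity and of other functions counted 1 region or none, on shares of all regions that are themselves small. The cDC1 genes were nearest to 1 region (0.935%, against 0.329% of all regions). It was at Wdfy4, needed for cross-presentation by cDC1s, with chr14:33127882-33128229 in its body at 4.04 ± 0.488 CPM at day 21 and 1.97 ± 0.451 CPM at day 7. This was the smallest log2 fold change of the set, 1.02 ± 0.24. Cdk6, a cell-cycle kinase, had chr5:3373198-3373520 (proliferation list, 0.935%, against 0.215%), and Icos, a co-stimulatory receptor of T cells, had chr1:61123440-61123881 at a distance of 123 kb (T and NK cell list, 0.935%, against 0.22%). The Icos region averaged 4.52 ± 0.484 CPM at day 21 and 1.91 ± 0.741 CPM at day 7, while the ends of Icos itself summed to 3.68 ± 0.680 CPM at day 21 and 5.13 ± 0.768 CPM at day 7. No region of the set was nearest to a gene of the other 14 lists, which hold macrophage, cDC2, mature dendritic cell, MHC class II, lipid, TGF-beta, cytokine, checkpoint, adhesion, B cell, neutrophil, pDC, melanoma and stromal genes. Each of these lists took between 0.0711% and 0.41% of all regions, so a count of 0 among 107 is close to that background.

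Other regions close to the set were often higher at day 21 too, with a smaller share in each successive band out to 50 kb. Among tested regions outside the set but within 2 kb of it, 59.0% of 61 were called higher at day 21 and 0 lower, with a median log2 fold change of 0.91. The share called higher was 43.7% at 2 to 5 kb, 39.4% at 5 to 10 kb, 21.1% at 10 to 20 kb and 12.7% at 20 to 50 kb. Beyond 50 kb it ran between 10.8% and 11.2%, near the 9.5% of all regions tested. Within 50 kb as a whole, 216 of 965 regions (22.4%) were higher and 61 (6.32%) lower, against 9.86% lower of all regions tested. These neighbours were measured in the same libraries and the same contrast that picked the set, so their calls are no independent support. In all, 56 regions of the set (52.3%) had a neighbour called higher within 10 kb, 51 (47.7%) had none, and 19 had no other tested region within 10 kb. The same shares over all regions were not counted, so these shares cannot be read as traits of the set.

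**Figure D4:**
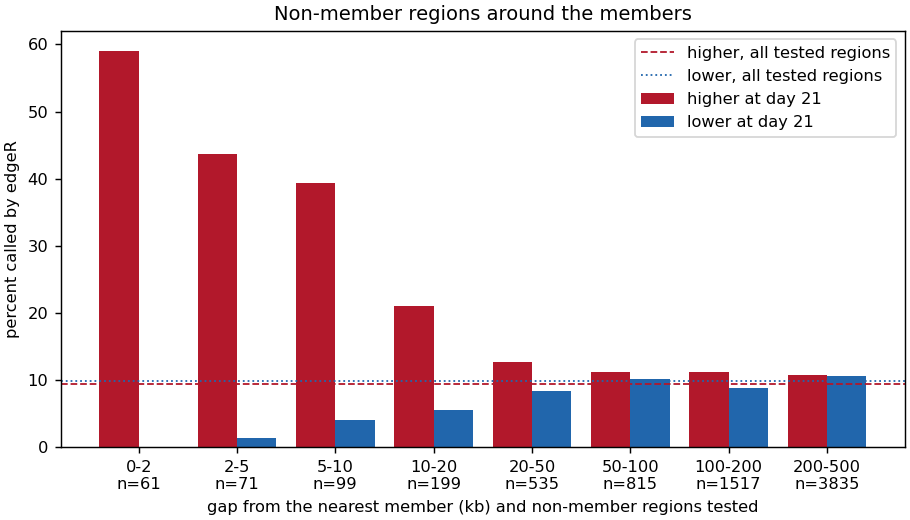
Percent of tested regions outside the set called higher (red bars) or lower (blue bars) at day 21 by edgeR, in bands of the gap in kb to the nearest region of the set, with the number of regions under each band; lines give the percent over all tested regions. The red bars fall from 59.0% in the nearest band to 12.7% at 20 to 50 kb, and the blue bars are 0% in the nearest band and between 8.41% and 10.6% beyond 20 kb.

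At several loci the region of the set stood beside a stronger region that was also called higher at day 21. Beside Hspa5, the regions chr2:34777663-34778866 and chr2:34779341-34780026 lay within 3 kb of the strongest region of the set. The second of them averaged 25.4 ± 6.96 CPM at day 21 and 5.27 ± 0.492 CPM at day 7 (2.27 ± 0.14). At Klf2, the region chr8:72324275-72325053, 529 bp away from the one in the set, averaged 27.8 ± 9.0 CPM at day 21 and 3.62 ± 1.55 CPM at day 7 (2.90 ± 0.17). These stronger regions were too open at day 7 to meet the rule. At H3f3b the region chr11:116019957-116020921 averaged 32.8 ± 1.98 CPM at day 21 and 9.46 ± 1.86 CPM at day 7 (1.78 ± 0.11). In Plcb4, 7 of 10 other tested regions within 25 kb of the cluster were called higher and 0 lower. Around the Myo16 regions 12 of 15 were higher and 0 lower, and summed over the locus, set included, the level was 155 CPM at day 21 and 58.3 CPM at day 7.

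Other regions of the set had few other tested regions around them. The region beside Neto2 had 1 other tested region within 25 kb, and it was not called (log2 fold change 0.42 ± 0.24). Around the Cmtm4 region 0 of 4 were called, and around the Nars2 region 0 of 4. In Cdkal1, of 2 neighbours 1 was called higher and 1 lower. The higher one, chr13:29483861-29484603, averaged 23.6 ± 1.88 CPM at day 21 and 18.1 ± 4.57 CPM at day 7 (0.38 ± 0.11). The lower one, chr13:29477451-29477675, averaged 0.323 ± 0.103 CPM at day 21 and 1.47 ± 0.154 CPM at day 7. Absence of a call at the neighbours beside Neto2, Cmtm4 and Nars2 does not show that they were unchanged.

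**Figure D5:**
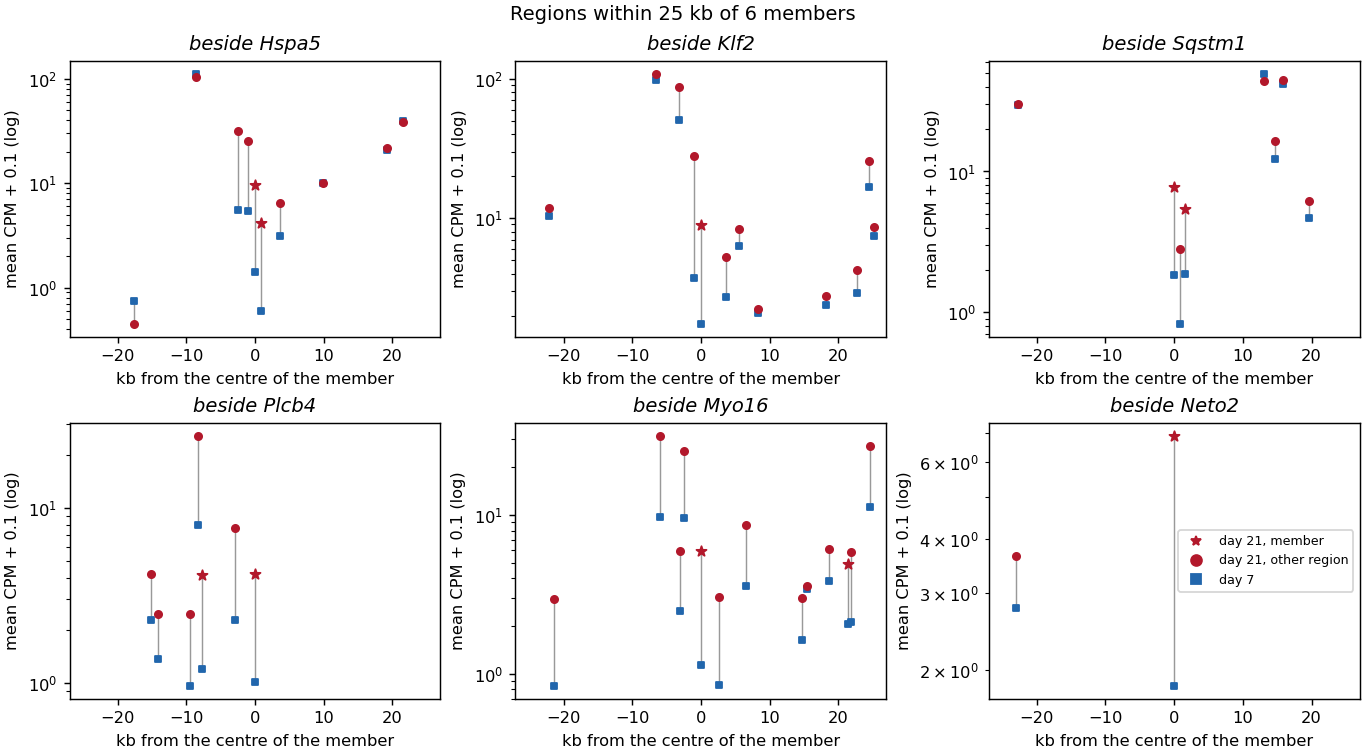
Mean CPM (log axis, 0.1 added) of every region within 25 kb of 6 regions of the set, by distance in kb from its centre; red symbols are day 21 (stars for the set, circles for other regions) and blue squares day 7, joined by a line per region. Stronger neighbours with a gap between the days stand beside the stars at Hspa5, Klf2, Plcb4 and Myo16, whereas the Neto2 star has 1 neighbour.

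Gene ends of the nearest genes differed little between the days on average. Of the 98 genes, 73 had an accessible region at an end apart from those of the set, and the log2 ratio of summed CPM, day 21 over day 7, had a median of -0.04. Over all 13562 genes with such a region the median was -0.09. In 12 of the 73 genes (16.4%) every day 21 library was above every day 7 library, against 5.49% of all genes, and in 9 (12.3%) every one was below, against 23.3%. At the promoter of Hspa5 printed above, the overlapping region averaged 104 ± 2.61 CPM at day 21 and 112 ± 4.67 CPM at day 7 (log2 fold change -0.11 ± 0.06, not called by edgeR). The Klf2 promoter had 109 ± 4.11 CPM at day 21 and 98.6 ± 2.68 CPM at day 7 (0.14 ± 0.06, not called, although every day 21 value was above every day 7 value). For Sqstm1 the values were 44.1 ± 2.22 CPM at day 21 and 49.4 ± 3.54 CPM at day 7 (-0.16 ± 0.07, not called). Sgk1 differed: of the 4 regions at its starts 3 were called higher, among them the printed promoter with 40.6 ± 2.62 CPM at day 21 and 33.4 ± 2.19 CPM at day 7 (0.29 ± 0.08). The summed ends were also higher, without overlap, at Sik1 (57.3 ± 3.26 CPM at day 21 and 46.1 ± 3.85 CPM at day 7), Myc (21.3 ± 1.67 CPM at day 21 and 16.2 ± 1.64 CPM at day 7) and the Wnt receptor gene Fzd1 (30.9 ± 3.27 CPM at day 21 and 19.1 ± 2.01 CPM at day 7).

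The sorted identity was checked at gene ends. Summed CPM over the 15 of 18 cDC1 genes with a region ran from 603 to 645 in day 21 libraries and from 587 to 618 in day 7 libraries. Clec9a had 17.3 ± 0.781 CPM at day 21 and 14.7 ± 3.00 CPM at day 7, and Irf8 had 38.3 ± 2.98 CPM at day 21 and 56.7 ± 5.32 CPM at day 7. Xcr1, Zbtb46 and Itgae had no region in their windows. Macrophage genes (27 of 30) summed to 386 to 411 CPM at day 21 and 373 to 387 CPM at day 7, with C1qc at 7.61 ± 1.53 CPM at day 21 and 3.53 ± 0.401 CPM at day 7. T and NK cell genes (20 of 26) summed to 104 to 115 CPM at day 21 and 126 to 135 CPM at day 7, and the pDC list to 151 to 161 CPM at day 21 and 162 to 172 CPM at day 7. The cDC2, B cell, neutrophil, melanoma and stromal sums overlapped between the days, and no region stood at Cd3e. The part of other cells in the 107 regions was not tested.

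The rule was applied to 7 libraries at a time, which chose between 106 and 148 regions. The day 21 library left out exceeded every day 7 library in 94.8% to 98.1% of them, against 23.7% to 26.9% of all regions. The day 7 library left out was below every day 21 library in 90.5% to 97.4%, against 27.5% to 31.0%. The libraries on the other side of these comparisons had been used by the rule, and the shares over all regions carry no such choice, so the shares are not a check of the direction. A left-out day 21 library reached 4 CPM in 48.7% to 64.2% of the regions chosen without it, and a left-out day 7 library stayed below 2 CPM in 40.5% to 55.0%.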

How the data were processed

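The authors deposited 1 table of raw counts per region, with whole numbers, no normalization and 1 column for each of the 8 libraries. The submitters' processing notes name MACS2 2.1.0.20150603, bedtools, SAMtools, Picard 1.65 and cutadapt 1.9, and the build mm10 (GRCm38). The aligner, the read filters, how peaks were merged, the unit counted (reads, fragments or insertions), any transposase shift and whether coordinates start at 0 or 1 are not given in the sources used here. Even numbers made up 61.9% to 69.9% of a library's values, so counts need not be independent molecules, and floors cover counting error only. The Wilson interval of the share at gene ends treats regions as independent draws, although some were linked.

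The rule used column totals. All regions were tested with edgeR 4.0.16 (R 4.3.3): filterByExpr, TMM factors, a quasi-likelihood fit with day as its term, and Benjamini-Hochberg adjustment over 121865 regions, with 0.05 as the threshold. The SE given with a log2 fold change is its absolute value divided by the square root of the quasi-likelihood F statistic. It is not a separately fitted standard error. The common biological coefficient of variation was 0.133. The method was tested on simulated data with 1 common dispersion, which real regions need not share. It recovered 85% of 100 regions changed 2-fold and 100% of 100 changed 4-fold, with 8 false calls. limma 3.58.1 and DESeq2 1.42.0 were alternatives. Genes and promoters came from RefSeq tables of GRCm38.p6, without exons or untranslated regions. No genome was used, so bases of the regions themselves are not printed.

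Named regions were the 12 with the highest day 21 level and the 12 with the largest ratio (0.5 CPM added, 1 per nearest gene), those at gene ends, clusters of at least 3, up to 4 per gene list, and those at the limits. Tnfaip3, the weakest Myo16 region, the neighbours, gene ends and loci named besides were chosen after their values were seen. The regions and lists were chosen with earlier results of these data known. Alternatives for neighbours and for log2 fold changes of named regions were added after seeing the data.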

Additional observations from a re-analysis of the deposited data

Results flagged for a closer look

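Among 62 sets of 4 libraries examined, which were the 2 days of 30 named regions and of the summed level, 3 held a library set apart from the other 3. Chance flags about 1 in 20 such sets. In the Cdkal1 region chr13:29471766-29472244, day 21 replicate 2 was the highest with 7.46 CPM, and the other day 21 libraries had 5.21 to 5.42 CPM. In the Cdk6 region chr5:3373198-3373520, day 21 replicate 3 was the highest with 5.02 CPM, and the others had 3.88 to 4.07 CPM. In the Nars2 region chr7:96946519-96946927, day 7 replicate 2 was the lowest with 0.847 CPM, and the others had 2.34 to 2.44 CPM.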

How the results depend on the processing

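The number of regions depended on the limits of the rule: a mean below 1 CPM at day 7 left 3 regions, and a mean of at least 6 CPM at day 21 left 8. Of the 3, 0% lay at gene ends, 100% in gene bodies and 0% between genes, 0% were linked within 50 kb, and 45.2% of neighbours within 50 kb were called higher. Of the 8, 0% lay at gene ends, 75% in gene bodies and 25% between genes, and 0% were linked. TMM scaling gave 108 regions (106 shared), DESeq2 size factors 110 (107 shared), allowing overlap 111, leaving out regions under 200 bp 106, and thinning all libraries to 9440223 counts 108, of which 79 were shared. Leaving out 1 library at a time gave 106 to 148 regions, 1.72% to 4.13% at gene ends, 45.8% to 54.8% in gene bodies, 42.6% to 51.7% between genes, 6.9% to 11.7% linked (lowest without day 21 replicate 3) and 21.1% to 24.9% of neighbours called higher. With gene-end windows of 2000 bp, 5.61% lay at gene ends, against 16.9% of all regions.

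Over all regions, edgeR called 11572 higher and 12018 lower. Other fits gave 10026 (DESeq2) to 11896 (no filter) higher and 11401 (DESeq2) to 12714 (limma-voom) lower, and leaving out 1 library gave 8996 to 11163 higher and 9763 to 11943 lower. The labels give both days the numbers 1 to 4 but tie no pairs. Deviations of same-numbered libraries correlated at 0.00411 to 0.00975, and not every library correlated best with its own number. A replicate block called 11404 higher and 11871 lower. All 107 regions were called higher in each of the 14 alternative fits, with log2 fold changes of 0.84 to 3.23, and the choice of the set on the same libraries makes this no independent check. A floor of 3 counts was worth 0.108 to 0.214 CPM in day 21 libraries and 0.187 to 0.318 CPM in day 7 libraries, which limits the folds of regions with few day 7 counts.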
